A study of Mus musculus with 30 samples.

Results

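The genes described here encode the voltage-gated and related cation channels of the mouse: potassium channel genes (Kcn), calcium channel genes (Cacn) and sodium channel genes (Scn). They were taken by symbol alone, as Kcn followed by letters and a number, any Cacn symbol, and Scn followed by a number and a or b, so no measured value chose them. The rule found 132 of 29555 genes in each gene table, of which 92 were Kcn, 26 Cacn and 14 Scn genes. A mean of at least 1 CPM (counts scaled to a common library size) in any group was reached by 75 of them (47 Kcn, 18 Cacn and 10 Scn), and 6 had no count in any library. The other 57 were under that level in every group mean, the nearest being Scn2a at 0.944 CPM, while the lowest of the 75 was Kcna7 at 1.01 CPM.

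The study measured RNA and open chromatin (ATAC-seq) in mouse epiblast stem cells (EpiSCs), which are primed pluripotent cells of the post-implantation epiblast type, and in definitive endoderm (DE), the germ layer of gut, liver and pancreas, made from them in culture. All EpiSCs were kept on feeder cells in N2B27-based medium with Fgf2, ActivinA and the Wnt pathway inhibitor NVP-TNKS656, and carried passage labels p5 to p10. DE was induced with the Wnt pathway activator CHIR99201 and ActivinA for 16 h, followed by ActivinA and the BMP receptor inhibitor LDN193189 for 24 h, in a protocol labelled 46 h in all, and CXCR4+ cells were collected by magnetic sorting. The RNA groups used were C57BL/6 (B6) EpiSCs (5 libraries) and B6 DE (4), and EpiSCs of PWK/PhJ (PWK, 3), B6.129 F1 (3) and DBA/2J (DBA, 1). The ATAC groups were B6 EpiSCs (4), B6 DE (4), PWK EpiSCs (2) and DBA EpiSCs (1). Apart from strain and the DE protocol no genotype or drug differed between the groups, and no line carried a labelled transgene. The labels call replicates biological but do not say whether they were separate lines or cultures, so p-values measure the spread between these samples.

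Voltage-gated potassium, calcium and sodium channels open when the membrane depolarises, and together they shape action potentials in nerve and muscle. Inward rectifiers and the tandem-pore leak channels, whose subunits carry a pair of pore loops each, let potassium pass near rest and set the resting potential of cells that do not fire. Auxiliary subunits do not form the pore: they change the trafficking and gating of the pore subunit, and some Cacng proteins serve as partners of AMPA-type glutamate receptors instead.

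Promoters were read from RefSeq (GRCm38.p6), which holds 97 of the 132 genes, and 5 are shown because the results below turn on them. Each run is the 250 bases before the annotated start, 5′ to 3′ on the strand of the gene. In Kcnh6 (chr11:106007898-106008147, plus strand) capitals mark the left and right parts of the REST motif, the element bound by a repressor of neuronal genes. In Cacng7 (chr7:3332575-3332824, plus strand), Kcnk16 (chr14:20269270-20269519, minus strand) and Kcnk13 (chr12:99964249-99964498, plus strand) capitals mark the bases covered by the ATAC peak nearest the start in the DE and EpiSC table. In Kcnj3 (chr2:55435720-55435969, plus strand) capitals mark the peak of the table of EpiSC strains.
Kcnh6: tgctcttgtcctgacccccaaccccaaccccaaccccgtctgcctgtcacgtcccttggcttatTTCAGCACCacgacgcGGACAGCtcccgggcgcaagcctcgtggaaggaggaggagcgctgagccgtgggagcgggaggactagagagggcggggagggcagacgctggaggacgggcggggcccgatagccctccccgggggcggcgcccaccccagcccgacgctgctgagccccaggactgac
Cacng7: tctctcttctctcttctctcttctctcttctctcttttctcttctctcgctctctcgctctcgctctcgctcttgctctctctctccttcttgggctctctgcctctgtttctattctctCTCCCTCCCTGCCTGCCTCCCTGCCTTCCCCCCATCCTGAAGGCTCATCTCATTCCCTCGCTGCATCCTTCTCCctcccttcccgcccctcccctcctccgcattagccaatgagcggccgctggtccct
Kcnk16: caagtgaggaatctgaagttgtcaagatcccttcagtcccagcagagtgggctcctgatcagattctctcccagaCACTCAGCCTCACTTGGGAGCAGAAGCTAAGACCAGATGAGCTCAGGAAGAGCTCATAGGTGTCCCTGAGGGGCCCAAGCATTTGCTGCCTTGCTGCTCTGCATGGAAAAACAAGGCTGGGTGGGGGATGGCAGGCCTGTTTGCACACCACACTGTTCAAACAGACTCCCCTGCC
Kcnk13: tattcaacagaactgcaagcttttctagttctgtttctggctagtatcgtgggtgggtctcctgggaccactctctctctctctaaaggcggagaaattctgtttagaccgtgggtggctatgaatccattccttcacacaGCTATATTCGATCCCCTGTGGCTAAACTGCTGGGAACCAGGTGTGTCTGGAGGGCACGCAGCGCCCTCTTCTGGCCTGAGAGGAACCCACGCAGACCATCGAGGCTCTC
Kcnj3: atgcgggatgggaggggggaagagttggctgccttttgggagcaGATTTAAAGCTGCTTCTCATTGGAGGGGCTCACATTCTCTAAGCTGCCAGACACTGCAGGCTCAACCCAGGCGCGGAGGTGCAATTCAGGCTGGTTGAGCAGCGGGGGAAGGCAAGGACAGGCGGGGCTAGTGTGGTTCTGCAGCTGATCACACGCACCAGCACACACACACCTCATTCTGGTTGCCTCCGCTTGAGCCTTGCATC

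Total counts in the RNA libraries ran from 22829536 to 29947841, except DE replicates 4 and 51 with 59995667 and 66563933. ATAC totals over peaks ran from 3751526 to 9571127. The labels were checked with marker genes: all 10 definitive endoderm markers tested (Sox17, Foxa2 and others) rose in DE, among them Cxcr4, which checks nothing because the cells were sorted on it. Of 8 EpiSC markers 6 fell, while Otx2, a factor shared by the epiblast and anterior endoderm, rose from 139.96 to 499 CPM on average (log2 change 1.83 ± 0.17, adjusted p = 1.05e-05). Markers of feeder fibroblasts, 12 genes such as Col1a1 and Postn, fell in 10 of 12 cases, while Pdgfra rose from 7.24 to 48.6 CPM on average (2.74 ± 0.39, adjusted p = 0.000174). Their summed level was 110 to 306 CPM in DE and 74.9 to 2822 CPM in B6 EpiSCs. Of 9 neuroectoderm markers 7 were tested, of which 5 fell, 1 rose and 1 was not called. The summed level of the 9 was 66.3 to 120.9 CPM in EpiSCs and 11.5 to 22.9 CPM in DE, with Neurog2 and Dcx at 0 in every DE library. Of 7 muscle markers 3 were tested and 1 rose, with Nkx2-5, Myh6 and Myod1 at 0 in DE. All 3 mesoderm markers tested fell and 2 of 3 visceral endoderm markers rose. The part that feeder or neuroectoderm-like cells have in the changes below was not tested, and in bulk RNA fewer cells of a type and less RNA per cell cannot be told apart.

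The first comparison asked how channel gene expression differed between B6 DE and B6 EpiSCs. In DE 6 of 7 tested sodium pore genes and 4 of 7 calcium pore genes fell, and the calcium channel subunits Cacng7, Cacnb2 and Cacng8 fell to under 0.2 CPM in every library, while the tandem-pore leak channels Kcnk13, Kcnk16 and Kcnk5, the inward rectifier Kcnj12 and the auxiliary subunits Cacna2d3, Scn4b and Kcnmb4 rose. Of the 132 genes, 77 passed the filter on low counts, and the rest were too low to test. Of the 77, 13 were called higher in DE and 38 lower at an adjusted p under 0.05 by edgeR's quasi-likelihood test, and 26 were not called. Over all 14085 genes tested, 31.5% were called higher and 30.6% lower. The median log2 change was -1.43 over the channel genes and -0.01 over all genes. A gene can pass the filter through the group in which it is high, so these counts describe the tested genes and not the whole families.

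By family, 11 of 47 tested Kcn genes were called higher and 22 lower, 1 of 19 Cacn genes higher and 9 lower, and 1 of 11 Scn genes higher and 7 lower. The median log2 change was -1.04 for Kcn, -1.43 for Cacn and -2.77 for Scn genes.

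**Figure D1:**
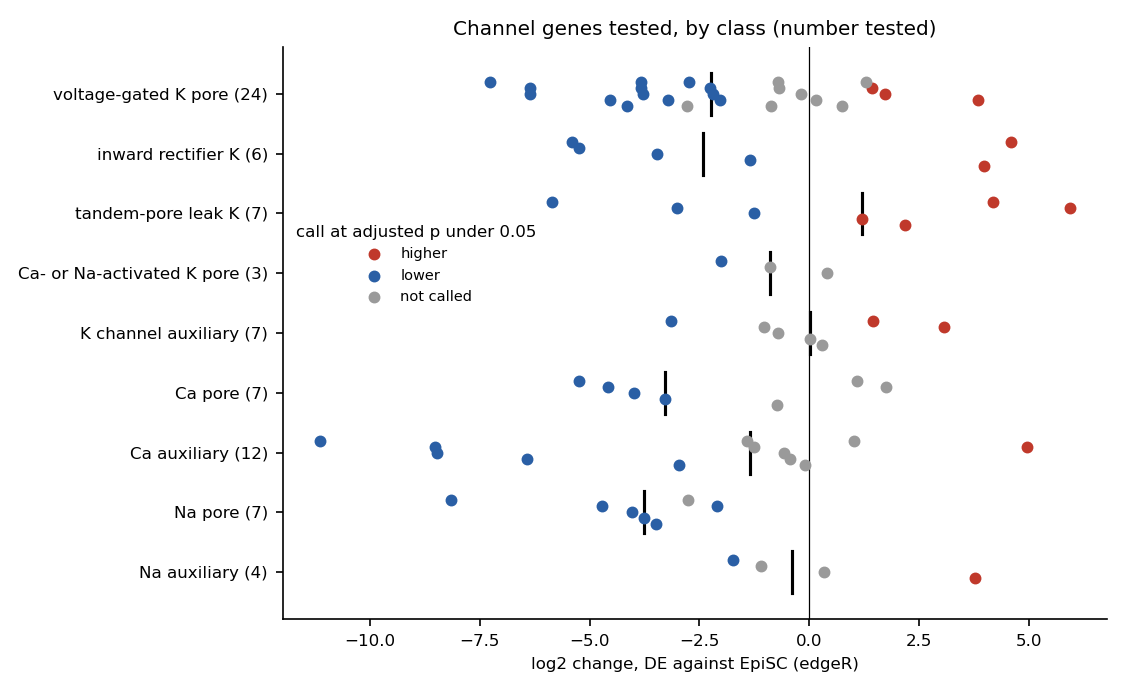
Log2 change in DE against EpiSC (x axis) of each channel gene tested, 1 point a gene, in rows by class with the number tested, coloured by call, with a black bar at the class median. Sodium pore, calcium pore and voltage-gated potassium pore medians lie at -3.75, -3.29 and -2.23, and the tandem-pore leak median lies at 1.19.

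In what follows, CPM values of DE libraries are given in the order of replicates 2, 4, 44 and 51, and those of B6 EpiSC libraries in the order of replicates 1, 2, 4, 44 and 51. CPM is scaled by library and not by transcript length, so levels are compared between libraries and never between genes. A log2 change is given ± its standard error.

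Of the leak channels, 4 of the 7 tested tandem-pore genes rose and 3 fell. Kcnk13, which encodes a halothane-inhibited leak channel, was at 4.63, 3.30, 4.03 and 2.96 CPM in DE and at 0.0379, 0.0381, 0.0361, 0.0324 and 0.148 CPM in EpiSCs. Those EpiSC values are 1 count in each of 4 libraries and 4 counts in replicate 51, so the gene was near the detection limit in EpiSCs and present in every DE library. The log2 change was 5.91 ± 0.58 (adjusted p = 1.4e-05).

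Kcnk16 and Kcnk5 encode alkaline-activated leak channels and lie on chromosome 14, 79.6 kb apart (Kcnk5 at 20140057 to 20181782 and Kcnk16 at 20261375 to 20269269). Kcnk16, known from pancreatic islets, was at 5.595, 3.997, 3.72 and 3.61 CPM in DE and at 0.569, 0, 0.325, 0.259 and 0 CPM in EpiSCs (log2 change 4.17 ± 0.95, adjusted p = 0.00318). Kcnk5 was already present in EpiSCs at 12.02, 15.5, 11.3, 10.5 and 11.8 CPM and reached 43.2, 62.2, 73.8 and 41.9 CPM in DE (log2 change 2.18 ± 0.21, adjusted p = 1.39e-05). In both genes every DE library was above every EpiSC library.

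Kcnk1, which encodes a weakly conducting leak channel and lies on chromosome 8, was at 46.3, 60.4, 36.9 and 90.0 CPM in DE and at 23.7, 36.9, 24.1, 24.5 and 19.1 CPM in EpiSCs. Its groups touch, because DE replicate 44 and EpiSC replicate 2 were both at 36.9 CPM. In DE replicate 51 the 641 chromosome 8 genes at 1 CPM or more had a median log2 ratio of 0.45 to the other DE libraries, against -0.02 over all genes. The log2 change of Kcnk1 was 1.19 ± 0.27 (adjusted p = 0.00329), and 0.90 without that library. Cacna1a, on the same chromosome, is given below.

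The leak channels that fell were Kcnk6, Kcnk12 and the mechanically gated Kcnk2. Kcnk12 was at 0.356, 0.315, 0.117 and 0.698 CPM in DE and at 1.78, 2.36, 4.51, 4.47 and 2.22 CPM in EpiSCs (log2 change -3.00 ± 0.60, adjusted p = 0.00139). Kcnk2 was at 1.12, 1.87, 1.33 and 0.910 CPM against 3.11, 3.69, 2.02, 3.63 and 3.25 CPM (log2 change -1.26 ± 0.38, adjusted p = 0.0156). Kcnk6 had 2 counts over the 4 DE libraries, which put its level in EpiSCs at 78.7 times that in DE with a 95% counting interval of 21.4 to 657. This and the other counting intervals below cover counting error only.

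All 6 inward rectifier genes that could be tested were called, 2 higher and 4 lower. Kcnj12, a strong inward rectifier, was at 2.95, 5.09, 3.36 and 0.561 CPM in DE and between 0.152 and 0.229 CPM in EpiSCs (log2 change 3.96 ± 0.63, adjusted p = 0.000322). Kcnj5, a subunit of G protein-gated channels, was at 9.105, 11.03, 8.88 and 0.303 CPM in DE and at 0.531, 0, 0.614, 0.356 and 0 CPM in EpiSCs. DE replicate 51 was therefore within the EpiSC range for Kcnj5, and the call (log2 change 4.59 ± 1.20, adjusted p = 0.0068) has its high values in the other DE libraries. Kcnj12 was also lowest in replicate 51. The rectifiers called lower were Kcnj3, Kcnj4, Kcnj10 and Kcnj14. Kcnj14 was at 0.0332 to 0.117 CPM in DE and 0.834 to 1.19 CPM in EpiSCs (log2 change -3.47 ± 0.56, adjusted p = 0.000379).

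Among voltage-gated potassium pore genes, 3 of 24 rose and 13 fell. Kcnh8, of the ether-a-go-go family, was at 0, 0.0663, 0.156 and 0.0607 CPM in DE and at 7.78, 3.24, 7.40, 8.93 and 3.55 CPM in EpiSCs (log2 change -6.36 ± 0.72, adjusted p = 3.51e-05). Its relative Kcnh2, which carries a repolarising current in heart muscle, went from 8.88, 18.3, 14.9, 21.5 and 17.7 CPM in EpiSCs to 1.02, 1.09, 0.861 and 1.71 CPM in DE (log2 change -3.78 ± 0.35, adjusted p = 1.1e-05). Kcnh6, the promoter of which is printed above, was at 0.560, 0.448, 0 and 0.167 CPM in DE and 2.20 to 7.54 CPM in EpiSCs (log2 change -3.83 ± 0.88, adjusted p = 0.00323). For these 3 genes no DE library reached the lowest EpiSC library.

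Kcnq3 encodes a subunit of the M-current channel, which damps repeated firing of neurons. Kcnq3 was at 0.102, 0.448, 0.156 and 0.470 CPM in DE and 3.87, 6.59, 2.35, 5.21 and 4.03 CPM in EpiSCs (log2 change -3.82 ± 0.58, adjusted p = 0.000252). Every DE library was below every EpiSC library.

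Kcnc4, an inactivating voltage-gated channel, was among the 3 pore genes that rose. Kcnc4 was at 9.26, 6.52, 2.31 and 1.76 CPM in DE and at 0.379, 0.190, 0.253, 0.583 and 0.296 CPM in EpiSCs (log2 change 3.84 ± 0.61, adjusted p = 0.000342). The other pore genes called higher were Kcna7 (log2 change 1.72 ± 0.53, adjusted p = 0.0165) and Kcnh3 (1.42 ± 0.44, adjusted p = 0.0173). Kcna7 ran from 0.576 to 1.78 CPM in DE and from 0.185 to 0.453 CPM in EpiSCs. Its call was lost with the replicate number added to the fit as a block.

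Of the calcium- and sodium-activated potassium pores, of which 3 were tested, 1 was called lower. This was Kcnt2, a sodium-activated channel, which was at 2.29, 1.94, 1.72 and 2.02 CPM in DE and at 10.1, 7.199, 7.07, 11.04 and 4.95 CPM in EpiSCs (log2 change -2.02 ± 0.32, adjusted p = 0.000339). Among potassium channel auxiliary genes 2 of 7 rose and 1, Kcnip2, fell. Kcnmb4, the auxiliary subunit of calcium-activated BK channels in brain, was at 29.4, 23.7, 21.6 and 16.4 CPM in DE and at 2.77, 1.87, 3.61, 2.75 and 2.55 CPM in EpiSCs (log2 change 3.07 ± 0.26, adjusted p = 5.87e-06). Kcnip3, a calcium-binding protein that partners Kv4 channels and can also bind DNA, went from 4.21 to 7.25 CPM in EpiSCs to 12.6, 16.0, 18.6 and 12.7 CPM in DE (log2 change 1.44 ± 0.24, adjusted p = 0.000418). Kcnab3, the gene not called with the highest mean among Kcn genes, was at 5.95 to 8.37 CPM in DE and 5.51 to 9.17 CPM in EpiSCs. Kcne1, the auxiliary subunit of the cardiac Kcnq1 channel, missed the filter and has no test. It was at 3.10, 2.87, 1.88 and 0.197 CPM in DE and had 2 counts over the EpiSC libraries, a ratio of 119 with a counting interval of 32.6 to 987.

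Of the calcium pore genes tested, 4 of 7 fell and none was called higher. They include the low-voltage T-type channels: Cacna1h was at 0.254, 0.547, 0 and 0.182 CPM in DE and at 5.92, 10.1, 10.97, 17.4 and 4.73 CPM in EpiSCs (log2 change -5.23 ± 0.82, adjusted p = 0.000301). Cacna1g was at 0, 1.06, 0.626 and 0 CPM in DE and at 5.35, 10.6, 10.8, 12.1 and 13.3 CPM in EpiSCs (log2 change -4.57 ± 1.11, adjusted p = 0.00459). The other genes called are the presynaptic channels Cacna1b and Cacna1a. Cacna1b was at 0.814, 1.84, 1.72 and 2.40 CPM in DE and at 16.4, 17.2, 19.1, 18.5 and 12.5 CPM in EpiSCs (log2 change -3.29 ± 0.33, adjusted p = 1.75e-05). Cacna1a varied widely among EpiSCs, from 0.417 CPM in replicate 1 to 5.41 CPM in replicate 2, and its DE maximum of 0.364 CPM came from replicate 51 (log2 change -3.99 ± 0.91, adjusted p = 0.00312, and -4.63 without that library).

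Of the calcium channel auxiliary genes, 5 of 12 tested fell and 1 rose, and the falls of Cacng7 and Cacnb2 were among the steepest of the channel genes. Cacng7, a partner of AMPA receptors, was at 54.7, 59.1, 56.2, 66.9 and 72.9 CPM in EpiSCs and at 0.102, 0.0332, 0 and 0 CPM in DE. The fitted log2 change was -11.13 ± 0.52 (adjusted p = 3.69e-07). Cacng8, another AMPA receptor partner on chromosome 7, 25.8 kb from Cacng7, was at 3.45, 3.09, 4.48, 3.72 and 3.58 CPM in EpiSCs and was seen in DE only in replicate 51, at 0.121 CPM (log2 change -6.41 ± 0.98, adjusted p = 0.000262). Without that library the gene had no count in DE, and the fitted value of -9.80 then depends on the prior count and is no bound. Cacng6, 7.32 kb from Cacng8, was not called: it ran from 0.698 to 4.63 CPM in DE and from 2.44 to 10.6 CPM in EpiSCs.

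Cacng3, another AMPA receptor partner, had no count in DE and was at 1.06, 0.495, 3.07, 1.72 and 0.111 CPM in EpiSCs. Against a floor of 3 counts a library its mean was at least 14.1-fold higher in EpiSCs. Cacnb2, the subunit that brings calcium pores to the membrane, was at 14.3, 18.8, 13.8, 21.2 and 17.996 CPM in EpiSCs and at 0.153, 0.0663, 0 and 0 CPM in DE (log2 change -8.50 ± 0.75, adjusted p = 7.77e-06). Cacna2d1 fell and Cacna2d3 rose, although both encode alpha2-delta subunits. Cacna2d1 was at 2.09, 2.29, 0.548 and 3.76 CPM in DE and at 16.3, 14.7, 12.99, 19.6 and 22.02 CPM in EpiSCs (log2 change -2.96 ± 0.47, adjusted p = 0.000328). Cacna2d3 was at 10.7, 33.1, 55.3 and 21.7 CPM in DE and at 1.74, 0.0762, 2.31, 0.550 and 0.222 CPM in EpiSCs (log2 change 4.94 ± 0.84, adjusted p = 0.000525). Their relative Cacna2d2 was not called, at 9.72 to 30.3 CPM in DE and 14.4 to 22.4 CPM in EpiSCs.

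Sodium pore genes were the class with the lowest median: 6 of 7 tested were called lower and none higher. Scn3a, Scn2a, Scn1a, Scn9a and Scn7a lie together on chromosome 2, and of these all but Scn7a were called lower. Scn3a, a channel of the embryonic brain, had no count in DE and was at 1.37, 1.14, 0.505, 0.809 and 1.29 CPM in EpiSCs, at least 11.2-fold higher against the floor of 3 counts a library. Scn1a, which sustains firing of inhibitory neurons, was at 3.19, 3.47, 2.35, 3.04 and 2.85 CPM in EpiSCs and was seen in DE only in replicate 4, at 0.381 CPM (log2 change -4.72 ± 1.18, adjusted p = 0.00531). Without that library DE had no count of Scn1a, and the fitted value, again no bound, was -9.54. Outside the cluster, Scn8a, which drives firing at the axon initial segment, was at 1.93, 0.846, 1.10 and 3.35 CPM against 7.22 to 8.34 CPM (log2 change -2.10 ± 0.42, adjusted p = 0.00146).

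The sodium auxiliary genes Scn2b and Scn4b lie 8.55 kb apart on chromosome 9 and moved in opposite directions. Scn4b was at 7.22, 29.2, 19.7 and 17.2 CPM in DE and at 3.26, 0.457, 0.902, 1.88 and 0.259 CPM in EpiSCs (log2 change 3.76 ± 0.70, adjusted p = 0.000917). Scn2b was at 0.153, 1.86, 1.29 and 1.43 CPM in DE and at 3.604, 3.96, 2.63, 2.201 and 7.69 CPM in EpiSCs (log2 change -1.74 ± 0.64, adjusted p = 0.0361). Scn3b, at 5.54, 5.34, 13.4 and 2.26 CPM in DE and 2.97 to 7.06 CPM in EpiSCs, was not called.

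**Figure D2:**
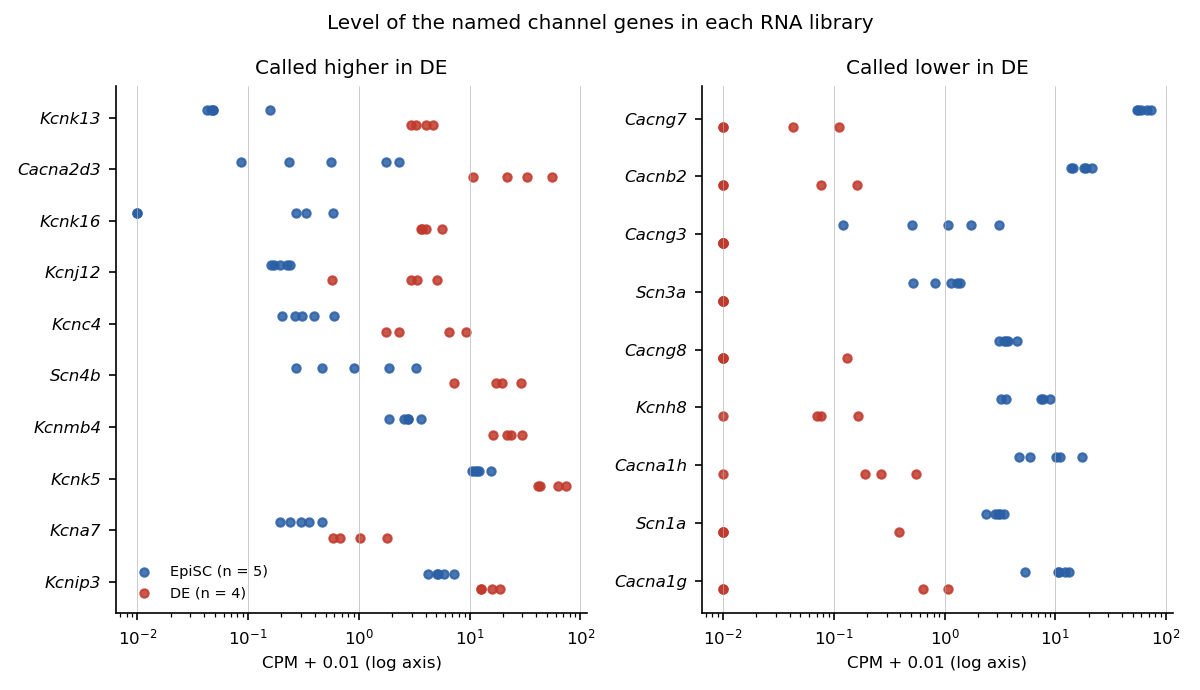
CPM plus 0.01 on a log axis of the named channel genes in each B6 RNA library, EpiSC in blue (n = 5) and DE in red (n = 4), left the genes called higher in DE and right those called lower. No gene shown has overlapping groups, and points at the left edge of the axis are libraries with 0 counts.

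EpiSC replicate 1 had the lowest feeder marker level, 74.9 CPM, which is below every DE library. With it as the sole EpiSC library, assuming that it varies like the DE libraries, edgeR called 4 channel genes higher and 10 lower of 94 tested, beside 1215 higher and 1656 lower of all 15304 genes tested.

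Other genes of ion transport were taken as lists. Of 7 sodium pump and sodium-proton exchange genes 1 rose and 3 fell. The pump subunit Atp1b3 rose (log2 change 1.09 ± 0.15, adjusted p = 0.000134), while the subunit Atp1b1 fell (-2.09 ± 0.23, adjusted p = 2.75e-05). Of 9 tested calcium pump and exchanger genes 1 rose and 5 fell. The sodium-calcium exchanger Slc8a3 rose (3.57 ± 0.58, adjusted p = 0.000404), and the plasma membrane pump Atp2b1 (-1.67 ± 0.14, adjusted p = 5.4e-06) and the endoplasmic reticulum pump Atp2a3 (-1.81 ± 0.26, adjusted p = 0.000183) fell.

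Of 10 genes of store-operated entry and release from the endoplasmic reticulum, 3 rose and 3 fell. The pore Orai1 (1.27 ± 0.23, adjusted p = 0.000728) and the release channel Itpr2 (2.61 ± 0.21, adjusted p = 3.88e-06) rose, and the calcium sensors Stim1 (-2.12 ± 0.33, adjusted p = 0.00029) and Stim2 (-1.25 ± 0.34, adjusted p = 0.00831) fell. Of 17 other cation channel genes 2 rose and 9 fell. The epithelial sodium channel subunit Scnn1a (1.496 ± 0.34, adjusted p = 0.00286) rose, and the mechanically gated Piezo1 (log2 change -2.001, edgeR's adjusted p = 0.00127) and the channel kinase Trpm7 (-0.78 ± 0.20, adjusted p = 0.0064) fell.

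Of 14 calcium effectors 4 rose and 6 fell. The calcineurin gene Ppp3ca rose (0.61 ± 0.16, adjusted p = 0.00757). Its relative Ppp3cb (-1.33 ± 0.15, adjusted p = 3.85e-05) and the calmodulin gene Calm3 (-0.59 ± 0.12, adjusted p = 0.00121) fell. Of 8 genes of the REST repressor and its cofactors 4 rose and 2 fell. The deacetylases Hdac1 (0.48 ± 0.12, adjusted p = 0.0045) and Hdac2 (0.96 ± 0.11, adjusted p = 4.04e-05) rose and the scaffold Sin3a (-1.84 ± 0.18, adjusted p = 1.74e-05) fell. Rest itself fell from 195.2 ± 24.1 CPM (SD, n = 5) in EpiSCs to 107.4 ± 23.5 CPM (SD, n = 4) in DE (log2 change -0.86 ± 0.17, edgeR's adjusted p = 0.0014).

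Motifs were searched as fixed letters on both strands of the 300 bases from 250 before to 50 after each start. The left part of the REST motif, TTCAGCACC, was held by 0.433% of the 27025 genes in the promoter table and by 1 of 97 channel genes, Kcnh6. The right part, GGACAGC, was held by 7.59% of all genes, by 13 of 97 channel genes, by 3 of 12 called higher and by 3 of 26 called lower. Both parts in order on the same strand were found in 12 of 32851 promoters, and Kcnh6 was the sole channel gene among them, with 7 bases between the parts. Any distance between the parts was accepted, so such a match does not show an intact REST motif. The FOXA letters TGTTTAC were in 4.05% of all genes and in none of 97 channel genes. The GATA letters AGATAA were in 12.7% of all genes and 5 of 97 channel genes, TGATAA in 10.4% and 5 of 97, and the SOX letters ACAAT in 34.4% and 23 of 97. These searches describe letters in a short window and not bound sites.

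The ATAC comparison of DE with EpiSCs asked whether chromatin near the starts of these genes opened or closed. Within 2 kb of a start lay 234 peaks at 112 of the genes, of which 203 peaks at 105 genes were tested, and 30 genes without a promoter entry were placed by either end of the gene. Of the 203, edgeR called 37 higher in DE and 42 lower at an adjusted p under 0.05. Over all 113870 peaks tested, 32.6% were called higher and 25.0% lower. The median log2 change was -0.05 for peaks of channel genes and -0.01 for all peaks. With total library size in place of TMM scaling the median of all peaks moved to -0.22 and the split of channel gene peaks to 34 higher and 60 lower. Over all 113870 peaks that scaling gave 33320 higher and 36674 lower.

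The nearest peak and the transcript did not always move together. Of the 11 transcripts called higher that had a tested peak, the nearest peak was called higher at 3 and lower at 3. Of 37 called lower with a tested peak, the nearest peak was called lower at 11, higher at 4 and not called at 22.

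**Figure D3:**
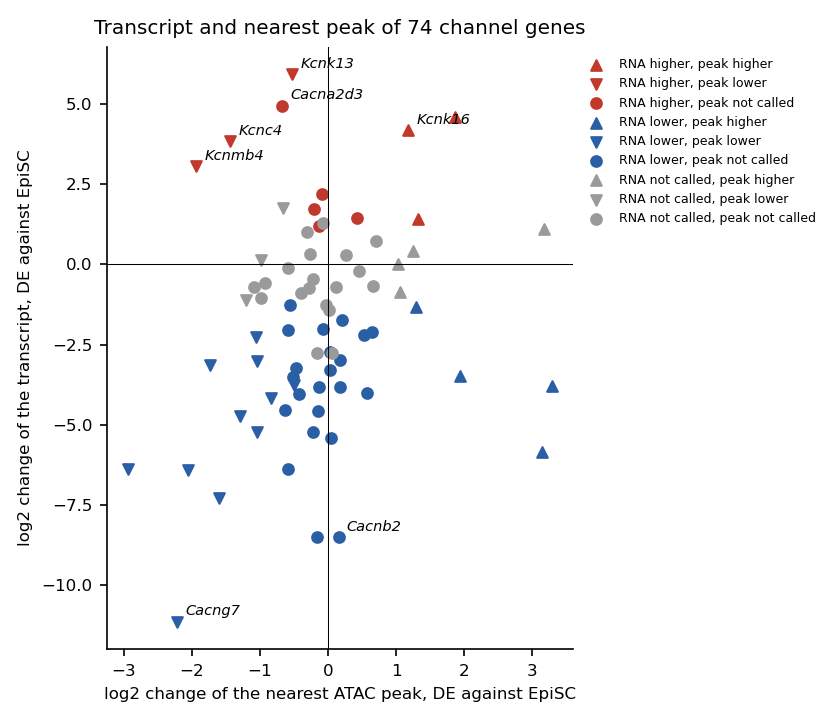
Log2 change in DE against EpiSC of the transcript (y axis) and of the nearest ATAC peak within 2 kb of a start (x axis) for 74 channel genes, coloured by the transcript call with the shape giving the peak call. For genes without a promoter entry, such as Kcnab3 and Cacna1a, the peak is that nearest to either end of the gene. Cacng7 fell in both, Kcnk16 rose in both, and Kcnk13, Kcnmb4 and Kcnc4 rose as transcripts beside a peak that fell.

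The peak at the Cacng7 start, printed above in capitals (chr7:3332695-3332768), was at 2.26, 0.658, 0.716 and 0.577 CPM in DE replicates 2, 4, 44 and 51. It was at 5.12, 4.31, 4.34 and 5.89 CPM in EpiSC replicates 1, 4, 44 and 51 (log2 change -2.21 ± 0.47, adjusted p = 0.000388), so peak and transcript were both lower in every DE library. The Cacng8 peak, 1965 bases from the start, fell too (-2.06 ± 0.46, adjusted p = 0.000664). The Cacnb2 transcript fell to near 0, and the peak 31 bases from a start did not pass the test, with DE libraries at 8.44, 13.8, 10.3 and 7.78 CPM and EpiSC libraries at 10.7, 8.31, 9.18 and 8.52 CPM. A peak 161 bases from another Cacnb2 start (chr2:14823896-14823967) was too low to test. It was at 0.412, 0.165, 0.429 and 0.288 CPM in DE and at 2.24, 0.701, 1.53 and 1.24 CPM in EpiSCs, without overlap. The Cacnb2 peak 275 bases from a start was not called (log2 change 0.08 ± 0.25). The peak nearest Cacng3 was likewise not called, with a log2 change of -0.17.

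The peak at the Kcnk16 start (chr14:20269147-20269444) was at 19.97, 26.7, 20.8 and 23.6 CPM in DE and at 9.28, 13.4, 11.7 and 5.58 CPM in EpiSCs (log2 change 1.18 ± 0.24, adjusted p = 0.00023). The peak nearest the Kcnk5 start was not called (-0.09 ± 0.42, adjusted p = 0.863). A second peak, 261 bases from that start (chr14:20181743-20182343), was higher in every DE library, at 25.3, 29.9, 29.9 and 34.3 CPM against 12.8, 14.8, 10.7 and 20.6 CPM in EpiSCs (1.00 ± 0.20, adjusted p = 0.00018). Kcnk13 had the opposite pattern at its start (chr12:99964390-99964652): 10.5, 13.5, 13.02 and 14.1 CPM in DE against 19.4, 18.1, 15.8 and 20.3 CPM in EpiSCs (log2 change -0.53 ± 0.20, adjusted p = 0.0264). Kcnmb4 and Kcnc4 also rose as transcripts beside a nearest peak that fell, with log2 changes of -1.94 ± 0.49 (adjusted p = 0.00174) and -1.44 ± 0.29 (adjusted p = 0.000272). Kcnk13 and Kcnmb4 also had a peak farther from the start that rose. That of Kcnk13, 1949 bases away (chr12:99966321-99966575), was at 6.17, 13.2, 14.2 and 9.22 CPM in DE and at 0.6398, 1.703, 1.275 and 1.86 CPM in EpiSCs (2.93 ± 0.38, adjusted p = 1.63e-06). That of Kcnmb4, 911 bases away (chr10:116474327-116474541), was at 11.3, 11.2, 17.03 and 11.5 CPM in DE and at 4.48, 7.71, 6.63 and 6.82 CPM in EpiSCs (0.99 ± 0.26, adjusted p = 0.00255). These farther peaks were chosen after their values were seen, and Kcnk13 had another peak that fell (-1.24 ± 0.51, adjusted p = 0.0417). With the replicate number added to the fit as a block, the nearest-peak calls of Kcnk13 and Kcnmb4 were lost.

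The largest gains of well covered peaks were at Cacna2d3, Kcne1, Cacna1d and Kcnk6. At Cacna2d3 a peak 1468 bases from the start (chr14:29720301-29720491) went from 1.12, 2.003, 0.5101 and 0.6197 CPM in EpiSCs to 13.6, 15.5, 18.03 and 20.8 CPM in DE (log2 change 3.82 ± 0.35, adjusted p = 1.9e-08), whereas the peak nearest the start was not called. At Kcne1 a peak 250 bases from an end of the gene rose by 3.52 ± 0.43 on the log2 scale (adjusted p = 8.29e-07). At Cacna1d the gain was 3.18 ± 0.53 (adjusted p = 3.78e-05) and the transcript was not called. At Kcnk6 a peak 1673 bases from an end of the gene rose by 3.14 ± 0.45 (adjusted p = 5.73e-06), although the transcript fell. The largest losses were at Kcnt2, with a peak 343 bases from the start (-2.28 ± 0.39, adjusted p = 4.06e-05), and at Kcna5, 34 bases from the start (-1.60 ± 0.23, adjusted p = 4.93e-06). The peak nearest the Kcnt2 start, 70 bases away, was not called (-0.08 ± 0.15, adjusted p = 0.661). Another Kcnt2 peak, 1927 bases away, rose (2.65 ± 0.34, adjusted p = 1.51e-06).

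EpiSCs of the other strains were then set against B6 EpiSCs to see how far channel gene levels differ by strain. The PWK and B6.129 F1 comparisons share the B6 libraries, and values here carry the scaling of the EpiSC table, so B6 levels differ slightly from those above. Of the 132 genes 80 were tested. In PWK 12 were called higher and 7 lower by edgeR at an adjusted p under 0.05, beside 12% and 14.5% of all 14822 genes tested, and 61 were not called. With total library size the split was 17 higher and 6 lower. Without the PWK library placed by strain alone, whose column name matches no single label, it was 7 higher and 4 lower, and without PWK BioRep698 4 genes were called lower. Over all genes 1781 were called higher and 2142 lower in the main fit, and 2226 and 1708 with total library size. Those calls fell to 1138 and 1323 without the library placed by strain, 1126 and 1336 without BioRep698, and 1129 and 1317 without BioRep695. The feeder markers were summed at 2327 to 3371 CPM in PWK, 78.0 to 2930 CPM in B6 and 157.6 to 242.5 CPM in B6.129 F1 libraries, and their part in the strain differences was not tested. B6 replicate 51, at 2930 CPM, lay within the PWK range of that sum.

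The genes higher in PWK came from several classes. Kcnk2, a leak channel, was at 9.17, 10.99 and 9.89 CPM in PWK BioRep695, BioRep698 and the library placed by strain, and at 3.24, 3.84, 2.06, 3.75 and 3.38 CPM in B6 (log2 change 1.62 ± 0.23, adjusted p = 0.000586). DBA was also high, at 8.72 CPM. Scn7a, which encodes a sodium sensor rather than a voltage-gated channel, was at 4.06, 3.97 and 4.71 CPM in PWK and 0.652 to 2.69 CPM in B6 (1.69 ± 0.42, adjusted p = 0.013). Kcnq3 was at 11.4, 14.1 and 11.5 CPM in PWK and 2.39 to 6.85 CPM in B6 (1.43 ± 0.27, adjusted p = 0.00308). Kcna1, Kcnj14 and Kcnip3 had log2 changes of 1.42 ± 0.31, 1.40 ± 0.23 and 1.15 ± 0.21, and none overlapped B6. Also called higher were Cacna2d1, Cacna1g and, under 1 CPM in every group mean, Cacna1e, Kcnb2 and Kcnh5.

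Kcnk12, a silent subunit of the leak family, was lower in PWK, at 0.336, 0.148 and 0.633 CPM against 1.86, 2.46, 4.59, 4.62 and 2.30 CPM in B6 (log2 change -3.08 ± 0.53, adjusted p = 0.00171). Kcnh8 was at 0.974, 1.34 and 0.792 CPM in PWK and 3.37 to 9.24 CPM in B6 (-2.62 ± 0.41, adjusted p = 0.0011). Cacnb2 was at 5.37, 4.94 and 4.51 CPM in PWK, below the 14.02 to 21.96 CPM of B6 (-1.85 ± 0.21, adjusted p = 0.000134), and Kcnab3 was lower by -1.06 ± 0.21 (adjusted p = 0.00383). Kcnf1, a silent modifier of delayed rectifiers, was at 0.235, 0.148 and 0.158 CPM in PWK and 0.474 to 1.98 CPM in B6 (-2.50 ± 0.64, adjusted p = 0.0155). The ATAC peak 192 bases from the Kcnf1 start was at 0.892 and 1.69 CPM in the 2 PWK libraries and at 10.9, 9.37, 12.7 and 17.0 CPM in B6. The Kcnf1 and Scn7a calls were lost without the PWK library placed by strain, and that of Kcnf1 also without PWK BioRep698.

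**Figure D4:**
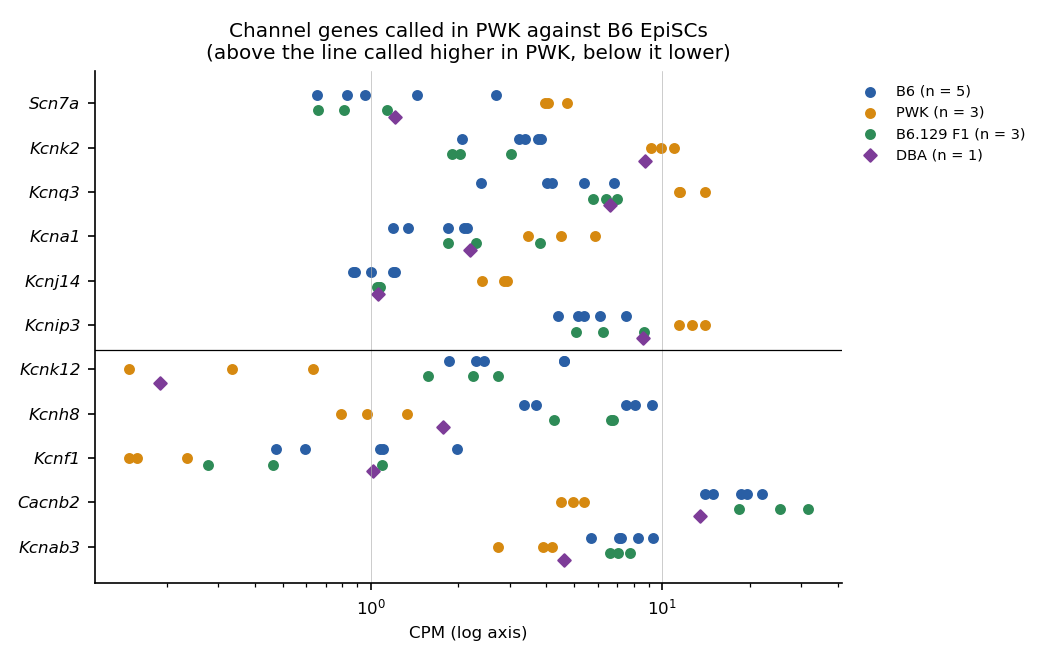
CPM on a log axis of the channel genes named in the PWK comparison, 1 point a library, for EpiSCs of B6 (n = 5), PWK (n = 3), B6.129 F1 (n = 3) and DBA (n = 1). No PWK library overlaps the B6 libraries for the genes shown, and DBA lies outside the B6 range on the PWK side for Kcnk2, Kcna1, Kcnip3, Kcnk12, Kcnh8, Cacnb2 and Kcnab3.

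In B6.129 F1 EpiSCs no channel gene was called higher and 2 were called lower by edgeR, beside 1.34% and 1.5% of all genes. At an unadjusted p under 0.05, 4 were higher and 15 lower, and DESeq2 called 2 higher and 7 lower. Of all 14822 genes, 3614 had an unadjusted p under 0.05, and DESeq2 called 876 higher and 1124 lower. Cacng7 was at 42.5, 37.3 and 34.6 CPM in F1 replicates 4, 9 and the F1 library placed by strain, below the 56.98 to 75.7 CPM of B6 (log2 change -0.75 ± 0.11, adjusted p = 0.0234). This call was lost without any of the 3 F1 libraries or without the PWK library placed by strain, with log2 changes from -0.83 to -0.68. The other gene called was Kcnj2, under 1 CPM in every group mean (-2.85 ± 0.58, adjusted p = 0.0376). The 7 described genes that were not tested among EpiSCs, Kcnk13, Kcnk16, Kcnj5, Kcnj12, Kcna7, Kcne1 and Cacna1s, were too low there.

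The single DBA library allows no test. Of 65 channel genes at 1 CPM or more in either group, 7 were past a 2-fold ratio to the B6 mean upward and 11 downward, beside 4.21% and 5.29% of 13127 genes. Setting each B6 library against the other B6 libraries in the same way gave 3 to 14 channel genes higher and 4 to 14 lower, so the DBA counts are within the spread of B6 libraries. Kcnk12 was at 0.189 CPM in DBA, below the lowest B6 library at 1.86 CPM, and was low in PWK as well. Cacng3 and Scn9a were at 0.0755 and 0.378 CPM, also below every B6 library, and Cacna1a at 0.642 CPM was within their range. Cacnb3, a cytoplasmic beta subunit, was at 15.7 CPM against 2.22 to 8.94 CPM in B6, and Kcnc2 at 1.51 CPM against 0 to 1.5005 CPM.

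Kcnj3, a subunit of G protein-gated inward rectifiers, differed widely between the B6 libraries. It was at 91.6 and 159 CPM in B6 replicates 2 and 44 and at 0.237, 2.90 and 0.0767 CPM in replicates 1, 4 and 51. The DBA library was at 156.5 CPM and the F1 libraries at 103, 82.5 and 87.2 CPM, while the PWK libraries were at 0.134, 0.186 and 0.435 CPM. Kcnj3 was called lower in PWK (log2 change -7.67 ± 2.51, adjusted p = 0.0464) with groups that overlap. In DE it was at 1.17, 0.481, 3.29 and 0 CPM, below EpiSC replicates 2 and 44, and the call there (-5.40 ± 2.13, adjusted p = 0.0478) has its high values in EpiSC replicates 2 and 44 alone.

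The ATAC peak at the Kcnj3 start (chr2:55435764-55435981, capitals above) was at 16.0 CPM in B6 replicate 44 and at 3.62, 6.32 and 5.21 CPM in replicates 1, 4 and 51. It was at 25.2 CPM in DBA and at 1.78 and 3.38 CPM in PWK. Among EpiSC libraries, replicate 44 and DBA were thus high and replicates 1, 4, 51 and PWK low in both assays. In DE against EpiSCs the peak at this start (chr2:55435764-55435972) was not called (log2 change 0.04 ± 0.38, edgeR's adjusted p = 0.933), although the transcript was called lower. That peak was at 4.73, 8.06, 10.3 and 6.34 CPM in DE and at 3.68, 5.91, 15.6 and 5.11 CPM in EpiSCs. B6 replicate 2 has no ATAC library of EpiSCs, and whether RNA and ATAC libraries of the same number come from the same cells is not stated in the labels.

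**Figure D5:**
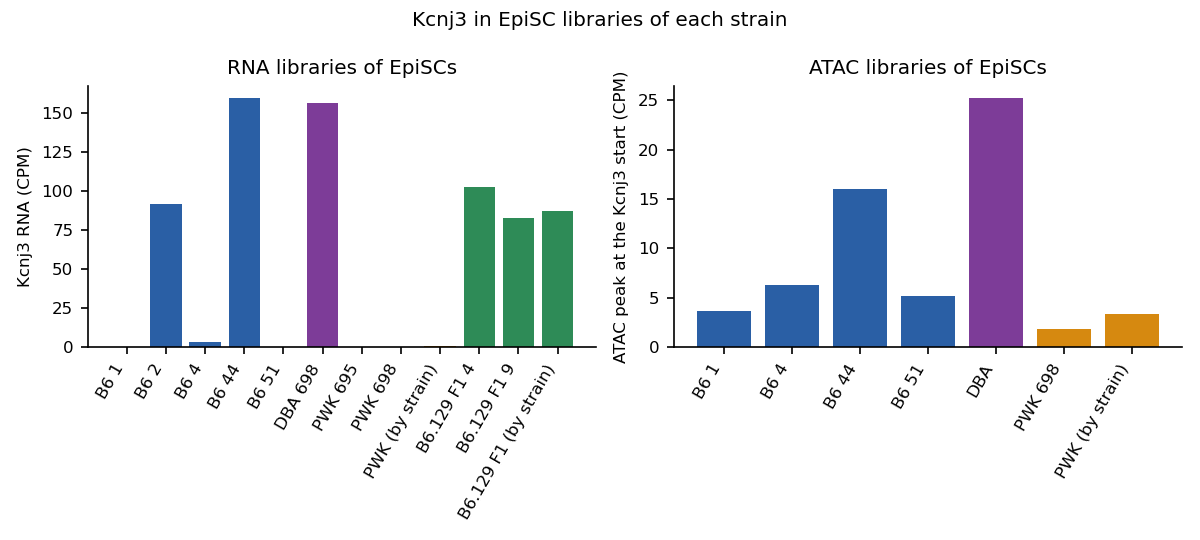
Kcnj3 RNA in CPM (left) and CPM of the ATAC peak at its start (right) in each EpiSC library, 1 bar a library, coloured by strain. RNA is at 82.5 to 159 CPM in B6 replicates 2 and 44, DBA and the F1 libraries and at 2.90 CPM or less in the others, and the peak is highest in DBA (25.2 CPM) and B6 replicate 44 (16.0 CPM).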

How the data were processed

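RNA and ATAC libraries were analysed from 2 gene tables and 2 peak tables whose deposited values are whole-number counts per gene or per peak. The submitters' processing notes name fastp, Bowtie2, MACS2, featureCounts, DESeq2, Salmon and the mm10 build, without roles or versions, and whether reads were counted by strand is not given in the sources used here. RNA was polyA-selected and made into stranded libraries, per the labels' protocols. The effect on PWK and DBA counts of a B6 reference genome was not tested.

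The genes and lists were chosen with earlier results of these data known. Groups came from the sample labels. Columns whose names match no single sample label (1 PWK RNA, 1 B6.129 F1 RNA and 1 PWK ATAC) were placed by strain, 17 columns of other samples were not used, and 3 PWK DE samples were not analysed here. Symbols were found for 29270 of 29555 gene identifiers, and gene positions come from RefSeq GRCm38.p6. Counts of every pair of RNA replicates and of B6 ATAC replicates differed by more than sampling noise, and the PWK ATAC replicates were not compared.

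Counts were fitted with edgeR 4.0.16 (R 4.3.3, limma 3.58.1), with TMM scaling, filterByExpr and quasi-likelihood tests, and p-values were adjusted over all genes or peaks by Benjamini-Hochberg. The standard error is the log2 change divided by the square root of the F statistic. CPM used TMM-scaled library sizes. PWK, B6.129 F1 and B6 EpiSCs shared 1 fit. Alternatives were DESeq2 1.42.0, other scalings and filters, other sets of groups or peaks, the replicate block and leaving out each library. The scripts were tested on simulated data. Tables, exact 95% counting intervals and figures were made with Python 3.11.15, numpy 2.4.6, pandas 2.3.3, scipy 1.17.1 and matplotlib 3.10.9.

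Genes named by rule were up to 12 a direction (6 for PWK and B6.129 F1) with the largest log2 change among those at 1 CPM or more that were called without overlap of the groups, and the gene not called with the highest mean of each family. For DBA they were up to 4 a direction past the fold. Peaks named were the peak nearest each named start and up to 4 a direction with the largest change among peaks of at least the median level. Lists of other genes gave up to 2 called genes a direction with the highest mean. Genes outside this rule, given to complete a class or a strain comparison, were chosen after their values were seen. Some genes that the rule names are not reported here.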

Additional observations from a re-analysis of the deposited data

Results flagged for a closer look

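Of 60 groups of channel gene values checked for a library that stands far from the rest, 3 held such a library, and chance gives about 1 in 20. That rate assumes continuous values. A group with 1 library above 0 and the others at 0 has a gap of 1 of the range by construction. Kcnk13 in B6 EpiSCs was highest in replicate 51, at 0.148 CPM (4 counts) beside 0.0324 to 0.0381 CPM in the others, with a gap of 0.95 of the range. Cacng8 in DE was seen in replicate 51, at 0.121 CPM, with 0 counts in the other 3 libraries, a gap of 1 of the range. Scn1a in DE was seen in replicate 4, at 0.381 CPM, with 0 counts in the other 3, again a gap of 1.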

How the results depend on the processing

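In DE against EpiSC RNA (13 higher, 38 lower), 20 were called higher with no filter. With at least 10 counts in every library 5 were higher and 10 lower, of the fewer genes then tested. Over all genes, 4639 of 20588 were called higher with no filter. The 10-count filter gave 3779 higher and 3552 lower of 11361. With the EpiSC library lowest in feeder markers alone, 4 were higher and 10 lower. Leaving out 1 library gave 12 to 15 higher and 31 to 40 lower, beside 4030 to 4561 higher and 3827 to 4586 lower over all genes. In PWK (12 higher, 7 lower), DESeq2 called 19 higher and 11 lower, the 10-count filter left 4 lower, and leaving out 1 library gave 7 to 17 higher and 4 to 10 lower. Over all genes DESeq2 called 2328 higher and 2456 lower, and the 10-count filter left 1823 lower. Leaving out 1 library gave 1126 to 2428 higher and 1317 to 2476 lower over all genes. In B6.129 F1 (0 higher, 2 lower), DESeq2 called 2 higher and 7 lower, no filter 1 lower, the 10-count filter 1 higher and 1 lower, and a fit to only the groups compared 0 lower. Leaving out 1 library there gave 0 to 1 higher and 0 to 5 lower. Over all genes in F1, DESeq2 called 876 higher and 1124 lower, no filter left 146 lower, and the 10-count filter gave 218 and 239. The fit to only the groups compared called 0 higher and 0 lower of 14132 genes. Leaving out 1 library gave 0 to 1001 higher and 0 to 951 lower over all genes. For peaks (37 higher, 42 lower), the 10-count filter gave 12 higher and 21 lower, and peaks anywhere in the gene or within 2 kb gave 276 and 198. Leaving out 1 library gave 32 to 40 higher and 40 to 57 lower. Over all peaks the 10-count filter gave 9868 higher and 8144 lower of 44872. Leaving out 1 library gave 33748 to 40472 higher and 29747 to 36781 lower over all peaks. Beyond the fewer genes, peaks or samples in a setting, the cause was not tested. Changes near 0 turned sign. The log2 change of Kcnab3 (0.0049) was -0.042 with RLE scaling, -0.079 with total library size, -0.040 with DESeq2, -0.016 with no filter, -0.053 with the 10-count filter, -0.22 with the feeder-lowest library alone, and -0.086 to 0.098 leaving out 1 library. Leaving out 1 library, Cacna2d2 ran from -0.48 to 0.10 and Scn3b from -0.27 to 0.62. The Cacnb2 peak (0.15) was -0.070 with total library size and -0.13 to 0.21 leaving out 1 library. With the replicate block, RNA gave 12 higher and 32 lower and ATAC 27 higher and 22 lower, against 13 and 34, and 32 and 31, when these libraries were fitted with no block. Over all genes the block gave 3792 higher and 3939 lower, against 4171 and 4026 with no block. Over all peaks the block gave 32883 and 21504, against 35207 and 26136. The Kcnk5 peak (-0.09) was 0.026 with the block and 0.023 in those libraries without it. The block ended the calls of the Kcna7 transcript and of 4 named peaks, those of Kcnab3, Kcnk13 and Kcnmb4 among them. Same-numbered RNA libraries correlated at 0.24, 0.19, 0.099 and 0.089 in their deviations from the group means, each best with its own number. Same-numbered ATAC libraries correlated at 0.020, -0.0029 and 0.050. The labels do not say that the numbers pair the samples, and these values do not settle it. The main fits therefore had no block, and the block fits are given as an alternative. The feeder-lowest library alone and the paired libraries without the block were chosen after seeing the data. Depth limits genes under 1 CPM, which had few counts in most libraries.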
